A study of Mus musculus with 4 samples.

Results

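The genes described here encode the transport machinery of the cilium, the BBSome and the centrosome. They were chosen by name: probe sets with a single platform-annotated gene symbol made of Ift, Bbs or Cep and a digit, together with Arl13b, Plk4, Pcnt, Stil and Sass6. Of 19938 named genes on the array, 63 met this rule, namely 14 Ift genes, 8 Bbs genes and 41 genes of the centriole and centrosome, of which 37 were Cep genes. Arl13b had no single-symbol probe set and was not analysed here. For the 4 members with several probe sets (Cep63, Cep164, Cep192 and Cep350) the one with the highest mean level was used.

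Total RNA of each tissue was hybridised to its own Affymetrix Mouse Gene 1.0 ST array, 4 arrays in all. The control was wild-type cerebellum at 2 months of age. Medulloblastomas, tumours of the cerebellum that arose spontaneously, were taken from the Math1-Cre;SmoM2 genotype at 1 month and at 2 months and from the PtchLacZ/+ genotype at 5 months. All 4 samples had a mixed background of the C57BL/6 and C3H strains. In Math1-Cre;SmoM2 mice, Cre under Math1 (Atoh1) control switches on an active form of the Hedgehog transducer Smoothened in the Math1 lineage only, so that the other cells of the dissected tumour keep the normal gene. PtchLacZ/+ mice carry a lacZ allele of Ptch1, the receptor that restrains Smoothened, in every cell. The labels do not say how many animals gave each sample.

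The primary cilium is a single antenna that grows from the older centriole of a cell. Intraflagellar transport (IFT) trains carry cargo along it, IFT-B particles mainly outwards and IFT-A particles mainly back to the base, and the BBSome is a coat that moves membrane proteins out of the cilium. In vertebrates Hedgehog signalling runs through this organelle: Smoothened enters it and the Gli factors are processed there, so granule neuron progenitors and the tumours that arise from them depend on a cilium. The cilium is taken down before mitosis, and the centrioles are copied once per cell cycle by Plk4, Stil and Sass6, which build the cartwheel of the new centriole.

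Levels are log2 expression values, and tumour levels follow in the order 1-month SmoM2, 2-month SmoM2 and PtchLacZ/+. The array medians over named genes lay between 6.73 and 6.82, and the lower quartiles between 5.09 and 5.17. A level under that quartile is not shown to be above background. Among the members only Cep55 in the cerebellum lay under it. Markers of the labelled tissues were read first. All 5 granule progenitor markers rose in the tumours, among them Atoh1 (4.85 in the cerebellum and 11.39, 11.84 and 11.98 in the tumours). Of the 5, 2 lay under the lower quartile in the cerebellum, Atoh1 among them, so their rises are lower limits. All 6 markers of mature granule neurons were lower in every tumour, 4 of them past the threshold.

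The 3 tumours were compared with the cerebellum to ask which members distinguish Hedgehog-driven medulloblastoma from normal cerebellum. Cep55, Plk4, Stil and Cep192 were the members with the largest rises. The 6 BBSome subunit genes named Bbs were lower in every tumour, and 2 of 14 IFT genes passed the test, 1 in each direction. Of 63 members 18 passed limma's test at an adjusted p under 0.05 (16.0% of all named genes passed). Of these, 12 were higher in the tumours, or 19.0% of members beside 6.70% of all named genes, and 6 were lower, or 9.52% beside 9.30%. The share that was lower lay near that of all genes. Without the 1-month SmoM2 tumour 7 members were higher and 4 lower, beside 4.98% and 6.48% of all named genes, without the PtchLacZ/+ tumour 5 and 4, beside 3.15% and 4.70%, and without the 2-month SmoM2 tumour 24 and 8, beside 13.5% and 16.7%. The cerebellum was a single array and was assumed to vary like the tumours. In dissected tissue, more cells of a type and more RNA per cell cannot be told apart.

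**Figure D1:**
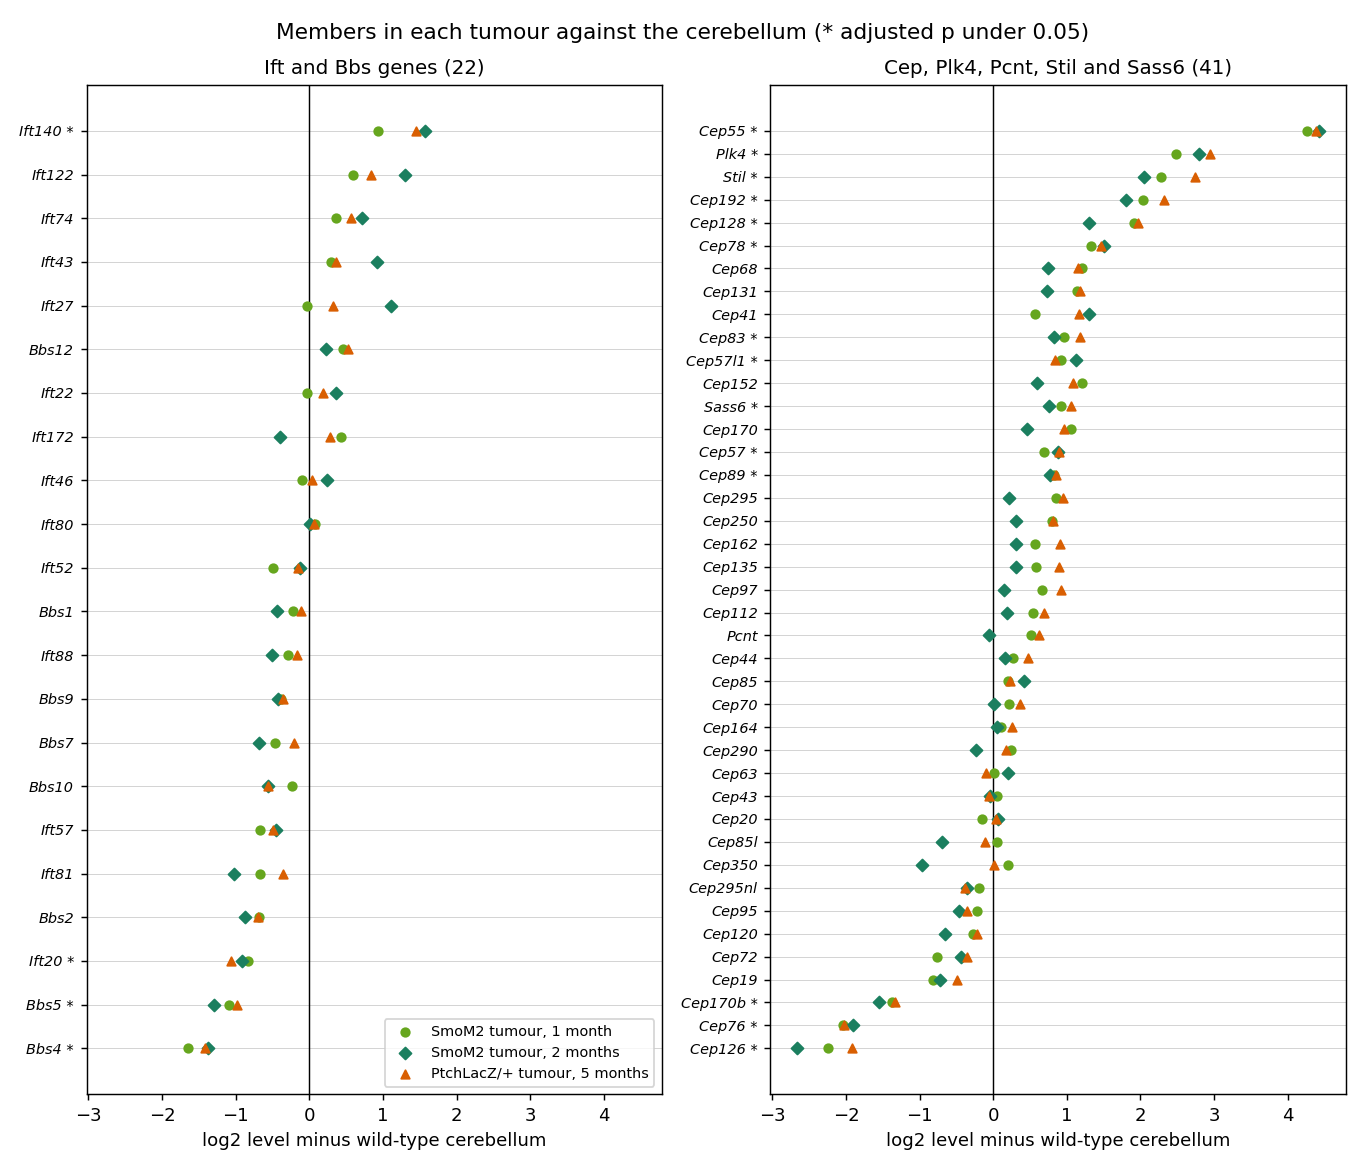
Log2 level of each member in each tumour minus that in the wild-type cerebellum, for the 22 Ift and Bbs genes (left) and the 41 centriole and centrosome genes (right), with 1 point per tumour and an asterisk at members with an adjusted p under 0.05. Cep55 lies farthest to the right at 4.26 to 4.43 and Cep126 farthest to the left at -1.92 to -2.67.

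The genes of centriole duplication come first. Plk4, the kinase that starts the copying of a centriole, was at 5.63 in the cerebellum and at 8.12, 8.42 and 8.58 in the tumours. It rose by 2.74 ± 0.23 (limma's standard error here and below), a 6.69-fold difference (adjusted p = 0.00511). Stil, which brings Sass6 to the site where the cartwheel forms, was at 5.86 in the cerebellum and at 8.15, 7.91 and 8.61 in the tumours. It rose by 2.36 ± 0.31, or 5.14-fold (adjusted p = 0.0109). For both genes the lowest tumour stood more than 2 log2 units above the cerebellum. Sass6, the structural protein of the cartwheel, was at 6.93 in the cerebellum and at 7.85, 7.68 and 7.99 in the tumours, and rose by 0.91 ± 0.20 (adjusted p = 0.0405). This rise was smaller than those of its partners, and it missed the threshold after quantile normalization (adjusted p = 0.0504) and after centring on the median (adjusted p = 0.0512).

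The scaffolds that recruit Plk4 to the centriole are Cep192 and Cep152. Cep192, which also organises the pericentriolar material from which microtubules grow, was at 6.65 in the cerebellum and at 8.69, 8.46 and 8.97 in the tumours. It rose by 2.06 ± 0.25, or 4.16-fold (adjusted p = 0.00949). Its other probe sets, which were not used in the test, differed by 2.60 and 1.57. Cep152 was at 6.09 in the cerebellum and at 7.30, 6.68 and 7.17 in the tumours, a difference of 0.96 ± 0.29 that did not pass (adjusted p = 0.0937). It passed without the 2-month SmoM2 tumour (adjusted p = 0.00493), the lowest of the 3. Cep63, a partner of Cep152, differed by 0.04 ± 0.20 (adjusted p = 0.941), with the PtchLacZ/+ tumour below the cerebellum and the SmoM2 tumours above it.

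Cep55 had the largest difference of any member. Its product is known less for the centriole than for the last cut of cell division, at the bridge between daughter cells. It was at 4.06 in the cerebellum, not shown to be above background, and at 8.32, 8.49 and 8.44 in the tumours. The difference of 4.36 ± 0.18 (adjusted p = 0.00295) is therefore a lower limit, and the tumours lay within 0.17 of each other. All 17 measured genes of a mitosis list rose beside it, with a median measured difference of 4.601 and a range from 1.15 (Anln) to at least 6.34 (Ccna2). Of these, 9 lay under the lower quartile in the cerebellum, so their differences are lower limits. Of 18 genes in that list, 17 were measured, and the log2 of their summed level was 9.69 in the cerebellum and between 13.94 and 14.11 in the tumours. The part of proliferating cells in the rises of the members was not tested.

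**Figure D2:**
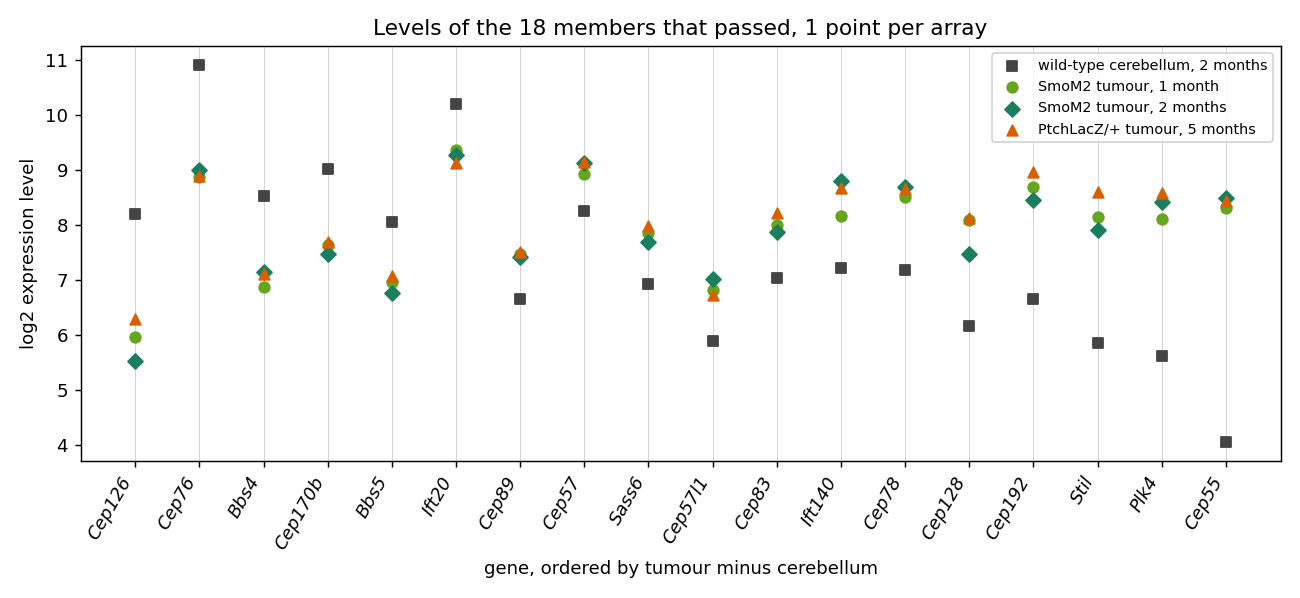
Log2 expression level of the 18 members with an adjusted p under 0.05 on each of the 4 arrays, 1 point per array, ordered by the difference between tumours and cerebellum. The cerebellum lies above all 3 tumours for the 6 genes on the left and below them for the 12 on the right, as in Cep55 (4.06 beside 8.32 to 8.49).

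The regions before the starts of these genes are shown because Plk4, Stil and Cep55 were among the members with the largest rises. The 250 bases before the start, from RefSeq on GRCm38.p6, are given 5′ to 3′ on the strand of the gene. Capitals mark letters of any of 4 motifs searched on both strands: TTTGAA (a CHR, the cell cycle genes homology region), GCGGGAA (an E2F-type site), CCAAT (the box bound by NF-Y) and GTTGCC (the core of an X-box, the site of RFX factors at ciliary genes). No 2 of these motifs overlap in the regions shown. Ift140, the ciliary member that rose, and Bbs4, the ciliary member with the largest fall, are shown for contrast.
Plk4, chr3:40799701-40799950, plus strand: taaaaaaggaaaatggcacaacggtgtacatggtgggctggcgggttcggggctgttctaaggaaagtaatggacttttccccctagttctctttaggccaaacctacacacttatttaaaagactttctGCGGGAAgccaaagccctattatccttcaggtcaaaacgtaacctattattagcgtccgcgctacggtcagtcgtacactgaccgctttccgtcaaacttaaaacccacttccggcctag
Stil, chr4:114999868-115000117, plus strand: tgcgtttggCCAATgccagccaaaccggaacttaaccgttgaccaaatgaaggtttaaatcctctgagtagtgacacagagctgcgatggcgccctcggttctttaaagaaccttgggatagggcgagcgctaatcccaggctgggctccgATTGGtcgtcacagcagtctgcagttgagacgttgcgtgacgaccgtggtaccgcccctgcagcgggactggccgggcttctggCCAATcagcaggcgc
Cep55, chr19:38054791-38055040, plus strand, the downstream of 2 starts: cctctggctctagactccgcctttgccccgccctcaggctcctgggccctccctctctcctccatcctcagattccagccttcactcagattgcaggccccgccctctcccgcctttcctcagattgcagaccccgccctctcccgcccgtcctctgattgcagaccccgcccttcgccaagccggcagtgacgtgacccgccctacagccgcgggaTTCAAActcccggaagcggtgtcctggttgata
Ift140, chr17:25015836-25016085, plus strand: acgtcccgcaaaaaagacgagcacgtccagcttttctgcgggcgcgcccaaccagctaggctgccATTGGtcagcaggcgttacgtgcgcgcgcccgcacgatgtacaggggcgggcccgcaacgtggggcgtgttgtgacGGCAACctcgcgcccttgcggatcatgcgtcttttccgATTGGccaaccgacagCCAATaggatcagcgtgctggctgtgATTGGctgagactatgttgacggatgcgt
Bbs4, chr9:59353509-59353758, minus strand: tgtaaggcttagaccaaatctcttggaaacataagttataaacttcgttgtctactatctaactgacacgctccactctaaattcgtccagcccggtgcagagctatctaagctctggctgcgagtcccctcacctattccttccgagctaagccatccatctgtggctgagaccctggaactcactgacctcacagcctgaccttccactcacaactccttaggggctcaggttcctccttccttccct
The Plk4 region holds the E2F-type letters, the Cep55 region shown the CHR letters on the opposite strand (the region of its upstream start holds none of the 4 motifs), the Stil region 3 CCAAT boxes, and the Bbs4 region none of the 4 motifs. The Ift140 region holds 4 CCAAT boxes and 1 X-box core. Among other members that rose, the regions of Cep78 and Cep83 hold none of the 4 motifs. Those of Cep57, Cep57l1, Cep89, Cep128 and Sass6 hold at least 1. Among other members that fell, the Cep170b region and 1 of 2 Cep126 regions hold a motif, and the Bbs5 and Ift20 regions hold none. No region was given for Cep192 or Cep76.

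RefSeq windows were given for 55 of the 63 members, 62 windows in all. The E2F-type letters were present in 11 of 43 windows of centriole members (25.6%) and in 0 of 19 windows of ciliary members, beside 3.82% of all 32851 windows in the table. The genes with it were Plk4, Pcnt, Cep41, Cep44, Cep57, Cep70, Cep112, Cep128, Cep152 and Cep170, of which 3 were among the members that rose. The CHR letters were present in 7 of 43 centriole windows (16.3%) and 0 of 19 ciliary windows, beside 16.0% of all windows. The X-box core was present in 4 of 19 ciliary windows (21.1%) and 5 of 43 centriole windows (11.6%), beside 10.4% of all, and CCAAT in 57.9% and 39.5%, beside 33.8%. A match describes letters only, windows of 1 gene can overlap, and these shares were not tested.

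The other risers among the centriole members are parts of the centriole wall, of the appendages of the mother centriole, and proteins that hold new and old centrioles together. Cep128, of the subdistal appendages, was at 6.16 in the cerebellum and at 8.08, 7.47 and 8.13 in the tumours, and rose by 1.73 ± 0.32 (adjusted p = 0.0262). It did not pass without the 1-month SmoM2 tumour (adjusted p = 0.0503) or without the PtchLacZ/+ tumour (adjusted p = 0.0685). Cep78, a protein of the centriole wall, was at 7.18 in the cerebellum and at 8.51, 8.69 and 8.65 in the tumours, and rose by 1.44 ± 0.18 (adjusted p = 0.0101). The distal appendages, which dock the mother centriole to the membrane when a cilium forms, are built in part from Cep83 and Cep89. Cep83 was at 7.04 in the cerebellum and at 8.001, 7.86 and 8.21 in the tumours, a rise of 0.99 ± 0.21 (adjusted p = 0.0369). Cep89 was at 6.65 and at 7.47, 7.42 and 7.501, a rise of 0.82 ± 0.17 (adjusted p = 0.0341). Cep164, the appendage protein that starts ciliogenesis, differed by 0.14 ± 0.18 (adjusted p = 0.706). Of these 3 distal appendage genes named Cep, 2 passed and Cep164 did not. Sclt1 and Fbf1, distal appendage genes with other names, did not pass. They differed by 0.29 ± 0.25 and 0.25 ± 0.23 (adjusted p = 0.539 and 0.576).

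Cep57 and its paralogue Cep57l1 hold new and old centrioles together until the end of mitosis. Cep57 was at 8.25 in the cerebellum and at 8.94, 9.13 and 9.14 in the tumours, and rose by 0.82 ± 0.18 (adjusted p = 0.0439). Cep57l1 was at 5.89 and at 6.81, 7.01 and 6.73, and rose by 0.96 ± 0.19 (adjusted p = 0.0334). All tumours stood above the cerebellum for both genes. Cep57, Cep57l1, Cep83, Cep89 and Sass6 each lost the call without the 1-month SmoM2 tumour (adjusted p = 0.0819 to 0.105) and without the PtchLacZ/+ tumour (adjusted p = 0.100 to 0.173).

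Several further centrosome genes were higher in every tumour without passing. Cep68, of the centrosome linker, was at 7.43 in the cerebellum and at 8.64, 8.18 and 8.59 in the tumours (1.04 ± 0.25, adjusted p = 0.0517). Cep131, a protein of centriolar satellites, was at 6.67 and at 7.81, 7.40 and 7.84 (1.02 ± 0.24, adjusted p = 0.0521). Both passed without the 2-month SmoM2 tumour (adjusted p = 0.00397 for Cep68 and 0.00415 for Cep131), and also when dim genes were left out of the fit (0.0425 and 0.0436). Neither Cep68 nor Cep131 passed in any other alternative. Cep41, which takes part in modifying ciliary tubulin, was at 5.81 and at 6.38, 7.12 and 6.98 (1.01 ± 0.33, adjusted p = 0.115), with the 1-month SmoM2 tumour the lowest. Cep170, of the subdistal appendages, was at 9.47 and at 10.53, 9.93 and 10.43 (0.83 ± 0.29, adjusted p = 0.131). Pcnt, the pericentrin scaffold of the pericentriolar material, was at 7.40 in the cerebellum and at 7.91, 7.35 and 8.02 in the tumours (0.36 ± 0.31, adjusted p = 0.544), so that the 2-month SmoM2 tumour lay below the cerebellum. Pcnt passed without that tumour (adjusted p = 0.0452).

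The centriole members that fell were Cep126, Cep76 and Cep170b. Cep126, a protein of the centrosome and cilium base, was at 8.21 in the cerebellum and at 5.97, 5.54 and 6.29 in the tumours. It fell by 2.28 ± 0.32 on the log2 scale (a 4.84-fold difference, adjusted p = 0.0134). Cep76, a protein that holds back extra copying of centrioles, was at 10.91 in the cerebellum and at 8.87, 9.004 and 8.88 in the tumours. It fell by 1.99 ± 0.17 on the log2 scale, or 3.98-fold (adjusted p = 0.00514), and the tumours lay within 0.14 of each other. Cep170b, a microtubule-binding relative of Cep170, was at 9.02 and at 7.64, 7.47 and 7.69, and fell by 1.42 ± 0.18 (adjusted p = 0.0108). Cep19, which brings IFT-B to the base of the cilium, was at 8.32 and at 7.496, 7.60 and 7.83 (-0.68 ± 0.20, adjusted p = 0.0942).

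The remaining centriole members did not pass and differed by between -0.52 (Cep72) and 0.67 (Cep295). Among these, Cep290, the transition zone protein at the neck of the cilium, was at 5.90 in the cerebellum and at 6.15, 5.66 and 6.08 in the tumours (0.06 ± 0.25, adjusted p = 0.917). Cep43 and Cep20, which are relatives of each other at the centriole base, differed by -0.02 ± 0.17 and -0.02 ± 0.18. Cep350, their partner at the mother centriole, differed by -0.25 ± 0.49 (adjusted p = 0.811). Over all 41 centriole members, 11 rose (26.8%, beside 6.70% of all named genes) and 3 fell (7.32%, beside 9.30%). All 3 tumours lay above the cerebellum for 26 (63.4%, beside 38.1% of all named genes) and below it for 8 (19.5%, beside 32.0%).

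The ciliary members are described next, from the IFT-A to the IFT-B particle and the BBSome. The IFT-A members Ift140, Ift122 and Ift43 were all higher in every tumour than in the cerebellum. Ift140, a core subunit, was at 7.23 in the cerebellum and at 8.16, 8.80 and 8.68 in the tumours. It rose by 1.32 ± 0.30, or 2.50-fold (adjusted p = 0.0454), and lost the call without the PtchLacZ/+ tumour (adjusted p = 0.124). Ift122 was at 7.13 and at 7.73, 8.44 and 7.97 (0.92 ± 0.31, adjusted p = 0.124), and passed without the 2-month SmoM2 tumour (adjusted p = 0.0312). Ift43, a small peripheral subunit, was at 7.44 and at 7.73, 8.35 and 7.80 (0.52 ± 0.30, adjusted p = 0.335). In each of the 3 genes the 2-month SmoM2 tumour was the highest. The IFT-A subunit genes with other names did not pass, with differences of -0.29 ± 0.24 for Wdr19, 0.16 ± 0.22 for Wdr35 and -0.06 ± 0.17 for Ttc21b.

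Of 11 IFT-B members, 1 passed (9.09%, beside 16.0% of all named genes). Ift20, a subunit that is also anchored at the Golgi and sorts membrane cargo, was at 10.19 in the cerebellum and at 9.36, 9.27 and 9.13 in the tumours. It fell by 0.94 ± 0.18 on the log2 scale, or 1.91-fold (adjusted p = 0.0307), and lost the call without the 1-month SmoM2 tumour (adjusted p = 0.0688) or the PtchLacZ/+ tumour (adjusted p = 0.129). The other 10 IFT-B members differed by between -0.68 (Ift81) and 0.55 (Ift74), subunits that bind tubulin together as the cargo of the train. Ift81 was at 8.51 in the cerebellum and at 7.85, 7.49 and 8.15 in the tumours (adjusted p = 0.204), and Ift74 at 6.98 and at 7.34, 7.70 and 7.54 (adjusted p = 0.164). The tumours were thus all below the cerebellum for one partner and all above it for the other. Ift88, whose loss removes cilia in mice, was at 8.23 and at 7.93, 7.72 and 8.06 (-0.32 ± 0.21, adjusted p = 0.392). Ift57 was at 9.07 and at 8.40, 8.62 and 8.57 (-0.54 ± 0.18, adjusted p = 0.125). The smallest differences were those of Ift80 (0.05 ± 0.17), Ift46 (0.06 ± 0.21) and Ift172 (0.11 ± 0.36).

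Of 7 BBSome subunit genes measured, the 6 named Bbs were lower in every tumour (32.0% of all named genes were), and Ttc8 (BBS8) was higher in every tumour. Bbs4, the subunit that binds centriolar satellites, was at 8.52 in the cerebellum and at 6.88, 7.15 and 7.11 in the tumours. It fell by 1.48 ± 0.20 on the log2 scale, or 2.78-fold (adjusted p = 0.0115). Bbs5, which contacts membrane lipids, was at 8.06 and at 6.97, 6.77 and 7.08, and fell by 1.12 ± 0.20 (adjusted p = 0.0243). Bbs5 lost the call without the 1-month SmoM2 tumour (adjusted p = 0.0610) or without the PtchLacZ/+ tumour (adjusted p = 0.0709). Bbs2 was at 8.65 and at 7.97, 7.78 and 7.95 (-0.75 ± 0.18, adjusted p = 0.0532), and passed without the 2-month SmoM2 tumour (adjusted p = 0.0219). Bbs7, Bbs9 and Bbs1 differed by -0.45 ± 0.24, -0.39 ± 0.17 and -0.26 ± 0.20 (adjusted p = 0.303, 0.203 and 0.499). Ttc8, which the naming rule does not reach, was at 7.46 and at 7.57, 7.99 and 8.05 (0.42 ± 0.25, adjusted p = 0.365). The median difference was -0.60 over the 6 Bbs subunits and -0.45 with Ttc8, beside 0.04 over all named genes.

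Bbs10 and Bbs12 are not BBSome subunits but relatives of chaperonins that help to assemble it. Bbs10 was at 6.55 in the cerebellum and at 6.31, 5.99 and 5.98 in the tumours (-0.45 ± 0.21, adjusted p = 0.241). Bbs12 was at 6.20 and at 6.65, 6.42 and 6.72 (0.40 ± 0.20, adjusted p = 0.271). The difference had a different sign in each, and neither passed.

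Ciliary and centriole members were then set side by side. Of 22 ciliary members 1 rose and 3 fell, and of 41 centriole members 11 rose and 3 fell. Thus 4.55% and 26.8% rose, beside 6.70% of all named genes, and 13.6% and 7.32% fell, beside 9.30%. The ciliary shares and the centriole share that fell lay near those of all genes. The median difference from the cerebellum was -0.23, -0.41 and -0.13 for the ciliary and 0.56, 0.22 and 0.81 for the centriole members in the 3 tumours, beside 0.01, 0.07 and 0.02 over all named genes. The centriole median stood above the ciliary one by 0.79, 0.62 and 0.94, and by 0.83 in the mean of the tumours. With 1 cerebellum and 3 tumours an exact permutation over arrays cannot give a one-sided p under 0.25, which is also the value here. In an alternative, 9 Cep genes listed for a ciliary role (Cep19, Cep41, Cep83, Cep89, Cep126, Cep131, Cep162, Cep164 and Cep290) were counted as ciliary. The ciliary median was then 0.06, above and not below 0, and the centriole median stood 0.46 above it. That list is not exhaustive and was written with earlier results of these data known, and both values depend on it.

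**Figure D3:**
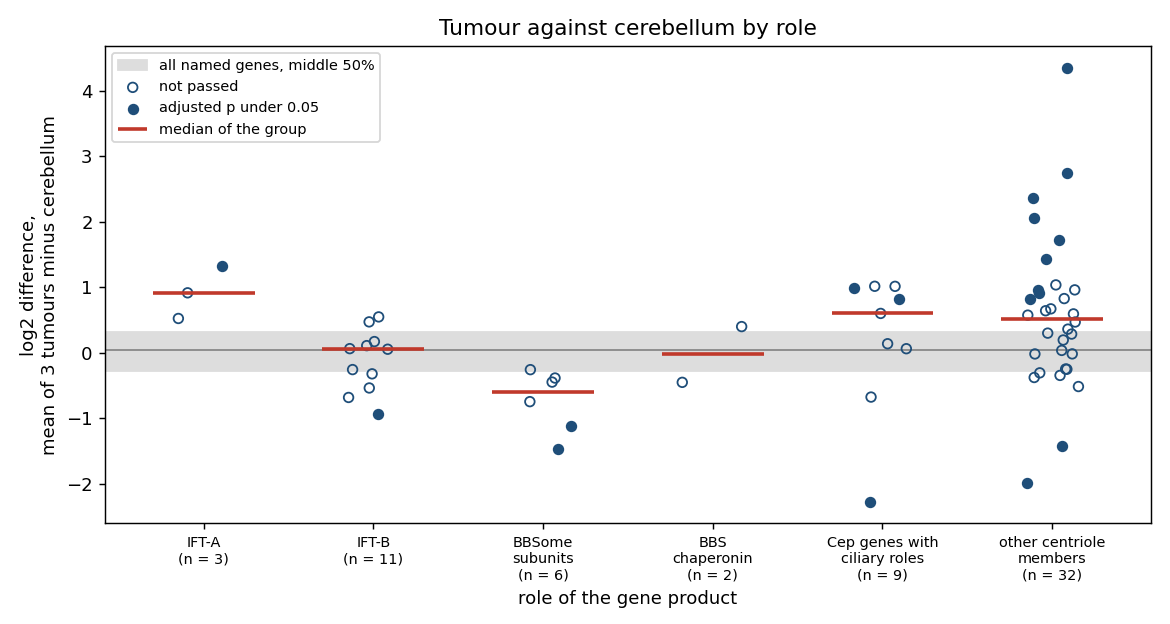
Log2 difference between the mean of the 3 tumours and the cerebellum for each member, by the role of its product, with filled points at an adjusted p under 0.05, a red line at the median of each group and a grey band for the middle 50% of all named genes. The medians were 0.92 for the IFT-A genes named Ift, 0.05 for the IFT-B genes named Ift and -0.60 for the BBSome subunits named Bbs. Subunit genes with other names are not shown. The other centriole members run from -1.99 (Cep76) to 4.36 (Cep55).

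Genes of the same machinery under other names were read from lists. Of all named genes, 6.70% rose and 9.30% fell by limma's test. The shares of further IFT proteins (9.09%) and motors (12.5%) that fell, and of transition zone genes that rose (6.25%), lay near these. Of 11 further IFT proteins and adaptors, 0 rose and 1 fell by limma's test, Ttc30b, an IFT-B subunit (-1.14 ± 0.21, adjusted p = 0.0272). Ttc26, another IFT-B subunit, differed by 1.36 ± 0.36 (adjusted p = 0.0685). Of 8 measured motor genes, 0 rose and 1 fell: Kifap3, the adaptor of the kinesin that drives trains outwards, fell by 1.07 ± 0.22 on the log2 scale (adjusted p = 0.0372). Wdr34, of the returning dynein, differed by 0.60 ± 0.31 (adjusted p = 0.289). None of 7 genes measured from a list of BBSome partners and Ttc8 passed, with Lztfl1 at -0.84 ± 0.27 (adjusted p = 0.109) and the ciliary trafficking GTPase gene Rab8a at 0.88 ± 0.25 (adjusted p = 0.0825). Of 16 measured transition zone genes, 1 rose, Tmem237 (0.76 ± 0.18, adjusted p = 0.0491), and 0 fell, with a list median of -0.09.

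Among 10 genes that act on Hedgehog signals in the cilium, 3 rose and 1 fell, and Evc, the partner of Evc2, differed by 1.43 ± 0.35 (adjusted p = 0.0565). Smo was at 7.40 in the cerebellum, at 10.02 and 10.69 in the SmoM2 tumours and at 9.72 in the PtchLacZ/+ tumour, whose genotype label does not name SmoM2. It rose by 2.74 ± 0.40 (adjusted p = 0.0144). Its probe set may also read the SmoM2 transcript, and the part of that transcript in the rise was not tested. Evc2, of the complex at the cilium base through which Smoothened signals, rose by 1.15 ± 0.21 (adjusted p = 0.0261), and Gpr161, a ciliary receptor that restrains the pathway, rose by 0.99 ± 0.19 (adjusted p = 0.0281). Sstr3, a receptor that marks neuronal cilia, was at 6.51 in the cerebellum and at 5.47, 5.45 and 5.53 in the tumours, and fell by 1.03 ± 0.17 (adjusted p = 0.0187).

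Of 22 further centriole and pericentriolar genes, 6 rose (27.3%, beside 6.70% of all named genes) and 0 fell (beside 9.30%). Among the 6 were Aspm, a spindle pole protein (4.24 ± 0.32, adjusted p = 0.00428), and the mother centriole protein gene Nin (1.96 ± 0.30, adjusted p = 0.0162). Aspm lay under the lower quartile in the cerebellum, so its difference is a lower limit. Poc5 and Odf2, also of the centriole, differed by -0.40 ± 0.18 and -0.29 ± 0.18 (adjusted p = 0.221 and 0.358). Of 17 measured gamma-tubulin and augmin genes, 5 rose (29.4%) and 0 fell. Those that rose included Nedd1, which brings gamma-tubulin to the centrosome (2.12 ± 0.28, adjusted p = 0.0110), and the augmin subunit gene Haus1 (1.17 ± 0.24, adjusted p = 0.0336). Tubg2 differed by -0.80 ± 0.23 (adjusted p = 0.0853). Of 7 measured genes of cilium disassembly, 4 rose (57.1%) and 0 fell. The 4 were Plk1 (4.22 ± 0.27), Aurka (3.50 ± 0.26), Nek2 (1.62 ± 0.20) and Kif24 (1.56 ± 0.34). Kif2a differed by 0.04 ± 0.21. Plk1, Aurka and Nek2 also act in mitosis.

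Other cells of the tissue could hold cilium genes. Of 17 markers of ependyma and multiciliated cells, which carry motile cilia, 0 rose and 1 fell by limma's test, Dnah11 (-2.12 ± 0.19, adjusted p = 0.00544). Of the 17 markers 5.88% thus fell, beside 9.30% of all named genes. The log2 of their summed level was 9.87 in the cerebellum and 9.48 to 9.61 in the tumours, and Dnah5, Dnah9, Dnaic1, Rsph4a, Hydin, Tekt4 and Deup1 lay under the lower quartile on all 4 arrays. Foxj1, the master regulator of motile cilia, was at 5.24 in the cerebellum and at 5.26, 5.45 and 5.39 in the tumours. The summed level of the 6 markers of mature granule neurons was 14.75 in the cerebellum and 9.32 to 10.72 in the tumours on the same scale, and that of 4 Purkinje cell markers was 13.62 and 7.38 to 10.004. Of other markers, 4 of 4 for interneurons, 4 of 5 for astrocytes and Bergmann glia and 3 of 4 for oligodendrocytes fell, and 3 of 3 for oligodendrocyte precursors and 3 of 4 for microglia and macrophages rose. The part of these cells in the lower levels of Bbs4, Bbs5, Cep76, Cep126 and Cep170b was not tested.

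Next, the models were set against each other, PtchLacZ/+ minus the mean of both SmoM2 tumours, although genotype and age cannot be told apart here. No member passed limma's test (0 of 63 at an adjusted p under 0.05 and 0 of 63 at an unadjusted p under 0.05, beside 0.00% and 1.40% of all named genes), with 1 residual degree of freedom. The largest difference was that of Stil, at 8.61 beside 8.15 and 7.91 (0.58 ± 0.27, adjusted p = 0.9998), and the next was that of Cep126, at 6.29 beside 5.97 and 5.54 (0.54 ± 0.31). The largest in the other direction was that of Ift43, at 7.80 beside 7.73 and 8.35 (-0.25 ± 0.35). The PtchLacZ/+ level lay above both SmoM2 levels for 24 of 41 centriole members (58.5%) and 7 of 22 ciliary members (31.8%), beside 23.8% of all named genes. It lay below both for 4 (9.76%) and 2 (9.09%), beside 31.1%. The median difference over members was 0.18 and over all genes -0.03.

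The SmoM2 tumours at 1 and 2 months were 1 array each, so no test was possible. Of 63 members 2 differed by at least 2-fold, beside 3.71% of all named genes. Cep350 was higher at 1 month (9.19 beside 8.01, a difference of 1.17), and 2.05% of all genes were at least 2-fold higher there. Ift27, a GTPase of the IFT-B train that helps the BBSome leave the cilium, was lower at 1 month (7.52 beside 8.66, a difference of -1.14), as were 1.66% of all genes by that measure. Of the other 5 probe sets of Cep350, all were higher at 1 month, by 0.54 to 1.65.

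By role, the medians of these differences had different signs. The Ift genes had a median difference, 1 month minus 2 months, of -0.35, while Ift172 was higher at 1 month by 0.83. The 3 IFT-A genes named Ift were lower at 1 month by 0.62 to 0.71 (Ift43 at -0.62, Ift140 at -0.65 and Ift122 at -0.71). The IFT-A genes with other names were not lower there, with differences of 0.007 for Wdr19, 0.205 for Wdr35 and 0.15 for Ttc21b. The Bbs genes had a median of 0.21, the centriole members 0.20 and all named genes -0.08. The 2-month tumour was the lowest of the 3 tumours for 27 of 41 centriole members (65.9%), 10 of 22 ciliary members (45.5%) and 30.8% of all named genes.

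**Figure D4:**
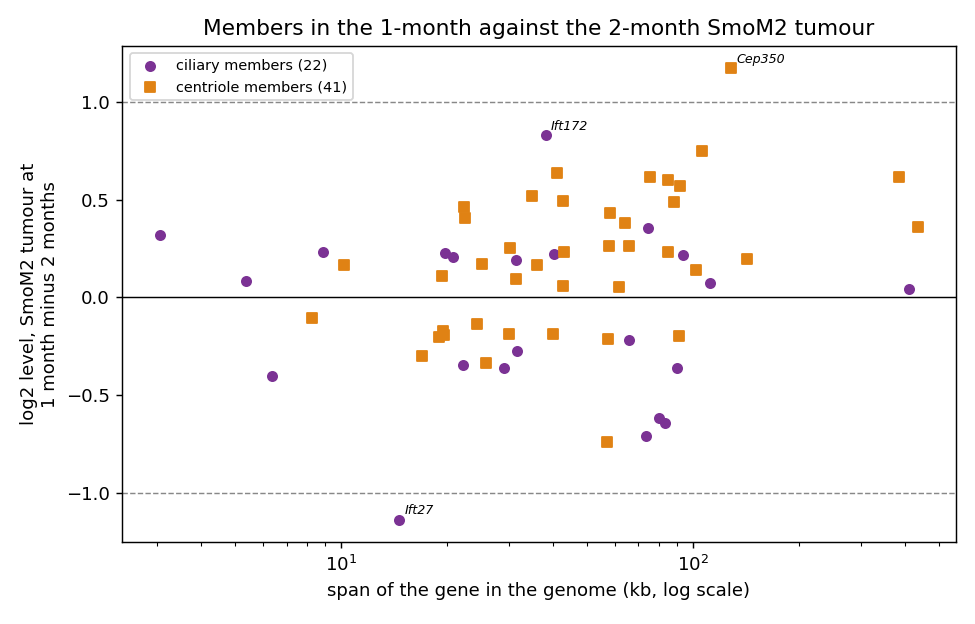
Difference in log2 level between the SmoM2 tumour at 1 month and that at 2 months (1 array each) for each member, against the span of its gene in kilobases on a log axis, with dashed lines at a 2-fold difference. Cep350 lies above the upper line at 1.17 and Ift27 below the lower one at -1.14.

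Other measures moved with the 2-month tumour. Over all named genes the median of 1 month minus 2 months was -0.09, -0.16, -0.12 and 0.05 from the genes with the shortest genomic span to those with the longest, in 4 classes of equal size, and 28 of 63 members lay in the longest class and 2 in the shortest. All 4 endothelial markers were higher in the 2-month tumour than in the other tumours (Pecam1 at 7.63 beside 6.30 and 6.40). Their log2 summed level was 9.57 in the cerebellum and 8.96 to 10.05 in the tumours. The choroid plexus gene Ttr was at 4.50 at 2 months, under the lower quartile, beside 11.27 at 1 month and 10.81 in the PtchLacZ/+ tumour. Of the 6 choroid plexus markers, Kl, Kcnj13 and Folr1 were also lowest among the tumours at 2 months, Aqp1 (6.45 beside 6.69 and 6.29) lay between the others and Clic6 (7.33 beside 6.71 and 5.93) was highest. The 6 markers had a log2 summed level of 8.72 in the cerebellum and 8.59 to 11.48 in the tumours. The part of gene span and of these cells in the differences of the members was not tested.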

How the data were processed

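The log2 expression values, 1 per probe set and array, were deposited by the authors in 1 table of 35557 probe sets and 4 arrays and came, per the submitters' processing notes, from Affymetrix Expression Console. Not given in the sources used here were its version, summarisation, normalization and genome build. The scale was taken as log2 because values ran from 2.71 to 14.9. Values were used as deposited, with no filter. The platform annotation gave 21789 probe sets a single symbol, of which 21698 matched a RefSeq gene (GRCm38.p6) by Entrez identifier. For each of 19938 genes the probe set with the highest mean was used. Tests used limma version 3.58.1 (lmFit and eBayes) in R version 4.3.3 with Benjamini-Hochberg adjustment over all named genes and a threshold of 0.05, with 2 residual degrees of freedom in tumour against cerebellum and 1 in PtchLacZ/+ against SmoM2. The fit was tested on simulated data in which all 4 arrays had the same spread for a gene. That could not test whether a single cerebellum varies like the tumours. The number of arrays limits the precision. In tumour against cerebellum the spread behind the p-values came from the tumours alone, which differ in genotype and age. In PtchLacZ/+ against SmoM2 it came from the 1-month and 2-month SmoM2 tumours alone. The labels do not tie the samples to separate animals. All members could be named, each with its value where it passed, and up to 2 genes per direction from each list. Evc2, Gpr161, Nek2, Kif24, Foxj1, Wdr35, Ttc21b, Sclt1, Fbf1, Kl, Folr1, Clic6 and further genes singled out by level fall outside this rule. These genes were chosen after their values were seen. Members and lists were chosen with earlier results of these data known. Alternatives covered normalization, centring, a filter on dim genes, the probe set used, the prior variance, the grouping of genotypes, the fold counted and each tumour left out.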

Additional observations from a re-analysis of the deposited data

How the results depend on the processing

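The rises of Plk4, Stil, Cep55, Cep78 and Cep192 and the falls of Bbs4, Cep76, Cep126 and Cep170b passed in every alternative fit that included them, 9 of the 18 calls. With genotypes as separate groups, which leaves 1 residual degree of freedom, 6 members rose, 6 of them centriole members and 0 ciliary, beside 3.90% of all named genes, and 1 ciliary member fell, beside 5.89%. With a trended prior variance 7 centriole members rose, beside 6.38%. With a difference of at least 2-fold also asked, 7 members rose, 6 of them centriole members, beside 5.54%. Leaving out each tumour in turn gave 5 to 24 members that rose, 5 to 22 of them centriole and 0 to 2 ciliary, and 1 to 5 ciliary members that fell. The counts were highest without the 2-month SmoM2 tumour and lowest without the PtchLacZ/+ tumour for the rises. Pcnt, Bbs2, Cep152, Cep170 and Ift122 passed only in the fit without the 2-month SmoM2 tumour. At 1.5-fold, 12 members differed between the SmoM2 tumours, beside 16.0% of all named genes. With ciliary Cep genes counted as ciliary the ciliary median reversed to 0.061 and the gap to the centriole median was 0.461, by construction of the groups. For the other changes the cause was not tested. The 25 members that passed in the main fit or in an alternative kept the sign of their difference in each fit that included them. They were picked by their test results, and the other members were not followed in this way. No paired analysis was possible because the labels give no replicate numbers shared between groups. No detection calls were used, so low levels are not shown to be above background.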

Other observations

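Members with several probe sets allow the same gene to be read more than once on each array. All 3 probe sets of Cep192 were higher in each tumour than in the cerebellum, with mean differences of 2.06, 2.60 and 1.57. The 6 probe sets of Cep350 differed from the cerebellum by between -0.58 and 0.15 in the mean of the tumours. The probe sets of Cep164 had differences of 0.14 and -0.24, and those of Cep63 of 0.04 and 0.19, the second at levels under the lower quartile on all 4 arrays. Another 24 probe sets carried a member's name together with other genes and were not used.

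Dync2h1, the heavy chain of the motor that returns IFT trains to the cilium base, was at 7.85 in the cerebellum and at 8.39, 7.004 and 8.44 in the 1-month SmoM2, 2-month SmoM2 and PtchLacZ/+ tumours. It was chosen after its values were seen. The difference of 1.38 between the SmoM2 tumours was larger than that of any member on the probe set used, the largest being 1.17 for Cep350.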
